A study of Mus musculus with 24 samples.

Results

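The complement and coagulation genes described here are 40 genes of mouse liver whose products circulate in plasma as complement proteins, clotting factors or their inhibitors. They were chosen by symbol, from a list made with earlier results of these data known. All 40 had a row in each of the 24 deposited tables, of 17537 genes that appeared in at least 1 table, and all 40 passed the filter on low values that left 10697 genes for testing. They were sorted by role into 6 branches, with 6 classical pathway genes, 4 lectin pathway genes, 3 alternative pathway genes, 7 terminal pathway genes, 13 coagulation genes and 7 genes of anticoagulation and fibrinolysis.

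The livers came from male C57BL/6 mice of 20 to 30 g that were dosed by gavage. One group received the vehicle, 0.5% CMC, and one received ethanol at 1 g per kg of body weight. A further group received DEHP, di(2-ethylhexyl) phthalate, a phthalate plasticiser known to proliferate liver peroxisomes in rodents, at 2500 mg per kg, and the last received DEHP and ethanol together at those doses, called the combination below. Each group had 6 libraries, while 12 mice per group are described, and the sources used here do not give whether a library holds 1 animal or several, how long dosing lasted, the age of the mice or whether the treated groups also received CMC. If the treated groups had no CMC, treatment and carrier cannot be told apart against vehicle, and since separate animals are not stated, p-values measure the spread between libraries. RNA came from whole liver, so fewer hepatocytes and less RNA per hepatocyte cannot be told apart.

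Most complement and clotting proteins of plasma are made and secreted by hepatocytes. Complement is started by the classical, lectin and alternative pathways, which meet at C3, and the terminal pathway then assembles C5 to C9 into a pore in the target membrane. In coagulation a chain of serine proteases leads to thrombin, which turns fibrinogen into fibrin, while antithrombin and protein C slow the chain and plasmin dissolves the clot. Several clotting proteases need vitamin K for the carboxylation that lets them bind calcium, and fibrinogen, C3 and some other members are raised in the hepatic acute phase response.

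The letters before the genes' start sites are shown first, because 9 members carry the same short word there. RefSeq promoter sequences of GRCm38.p6 were matched for 31 of the 40 members, and short words linked to liver transcription factors or the basal promoter were searched on both strands in the 250 bases before each start. The word GTTAAT, or ATTAAC on the other strand, which is part of the site bound by HNF1, was present for 9 members, C1ra, C4bp, Hc, C8a, C8b, Vtn, F13b, Fga and Fgb, and in 6.43% of 32851 promoter entries. All 9 were lower with DEHP than with vehicle, and so were 14 of the 22 members searched that lack the word, C1s1, C6, C9, F5 and F11 among them. Over all genes tested, with or without the word, 11.6% were lower. The 6.43% is a share of promoter entries, and how many tested genes with the word were lower was not counted. A link between the word and the changes was not tested. Stretches of 50 bases are given for the 5 of these whose window lies outside the annotated gene, in lower case on the gene's strand with the word in capitals, the positions being chr6:124512439-124512488 plus strand for C1ra, chr4:104766089-104766138 plus strand for C8b, chr3:83026088-83026137 plus strand for Fga, chr3:83049865-83049914 minus strand for Fgb and chr11:78498986-78499035 plus strand for Vtn.
C1ra: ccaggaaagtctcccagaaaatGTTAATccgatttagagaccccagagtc
C8b: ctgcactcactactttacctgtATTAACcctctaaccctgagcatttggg
Fga: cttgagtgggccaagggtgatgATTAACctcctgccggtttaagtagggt
Fgb: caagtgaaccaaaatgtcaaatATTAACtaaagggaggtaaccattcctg
Vtn: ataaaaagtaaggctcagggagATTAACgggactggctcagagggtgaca
In the 5 stretches the word began 160, 206, 43, 29 and 112 bases before the start, in the order printed. The word AGGTCA, bound by nuclear receptors, was found for 10 members, Mbl2, C3, C6, C8b, F2, F5, F7, F10, Fgg and Serpinf2, and in 14.0% of all entries. TTGCNNAA, a C/EBP-type word, was found for 8 members, C1s1, C3, C9, F9, F11, Fga, Fgb and Klkb1, and in 9.56% of all entries. TATAAA was found for 3 members against 12.4% and the forkhead word TGTTTAC for F11 and Klkb1 against 3.17%. A longer HNF1 word that holds the short one on both strands was found for 0 members and in 0.00913% of all entries. A direct repeat of the nuclear receptor word was found for 0 members against 0.0335%. A looser form of that repeat was found for F7 against 0.338%. All of these are letter matches in a short window and not shown to be bound.

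Vehicle livers made these transcripts at levels that spanned from the fibrinogen chains to protein S. Levels of different genes are compared in FPKM, which is per transcript length. Ranked by mean FPKM with vehicle, the highest members were Fgb at 3034 ± 762 (SD, n = 6), Fgg at 2686 ± 680 and Fga at 2101 ± 611, followed by Vtn, C3, Kng1 and Serpinc1, and Pros1 was lowest at 16.0 ± 1.56. With vehicle, the mean ± SD ranges of the 3 fibrinogen chains overlapped. Within each of the 24 libraries, however, Fgb was above Fgg and Fgg above Fga. The members together took 4.32% to 5.58% of each vehicle library's expected counts, 4.55% to 5.57% with ethanol, 3.77% to 4.52% with DEHP and 3.73% to 4.62% with the combination. The vehicle range overlapped those of both groups with DEHP.

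Total expected counts ran from 7324793 to 8016662 per library, and the lowest count of any member in any library was 182, for C6 in a combination library. Of 9 tested hepatocyte markers, 6 were lower and 0 higher with DEHP than with vehicle, and 7 had a negative sign. Their log2 changes ran from -0.64 ± 0.11 for Alb to 0.24, with a median of -0.39. Their summed FPKM was 64637 to 88510 with vehicle, 75262 to 92650 with ethanol, 56205 to 66609 with DEHP and 61343 to 68191 with the combination. The summed FPKM of 12 Kupffer cell and macrophage markers was 134 to 397 with vehicle (median 198) and 202 to 599 with DEHP (median 228). It was 154 to 291 with ethanol (median 198) and 196 to 277 with the combination (median 223), and 0 of the 12 were called in any comparison. For 6 adipocyte markers it was 7.78 to 66.8 with vehicle, 3.3 to 7.35 with ethanol, 17.7 to 152 with DEHP and 24.5 to 124 with the combination. Of 10 stellate cell markers, 4 were lower than vehicle with DEHP, 2 with the combination and 4 with ethanol, and of 10 sinusoidal endothelium markers 2, 3 and 5. Over all genes tested, 11.6%, 17.4% and 14.5% were lower. The summed FPKM of the stellate list was 60.9 to 246 with vehicle (median 66.7) and 58.4 to 202 with the combination (median 63.8). With DEHP it was 55.0 to 66.4 (median 59.6) and with ethanol 41.6 to 61.4 (median 54.0). Transcripts of skeletal muscle (Acta1) were present in vehicle replicate 1 and combination replicate 6, and of exocrine pancreas in DEHP replicate 6. The acute phase gene Saa1 reached 2204 and 2870 FPKM in vehicle replicates 1 and 2 and 36.9 to 558 elsewhere. The clock output gene Dbp set the ethanol group apart, at 16.6 to 77.3 FPKM. It was at 0.36 to 1.67 with vehicle, 0.65 to 1.94 with DEHP and 1.21 to 6.88 with the combination. This difference therefore lies between the groups of both pairwise comparisons that use the ethanol libraries, and the interaction uses those libraries too. What part cell make-up, these tissues, the Saa1 state or the state marked by Dbp had in the members' results was not tested beyond the member counts without the libraries with high Saa1 or other tissues.

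With DEHP most of these genes were called lower, and 0 were called higher. Against vehicle, 26 of the 40 members were lower and 0 higher (edgeR's quasi-likelihood test, Benjamini-Hochberg adjusted p below 0.05), or 65% of the members, where 11.6% of all genes tested were lower and 14.4% higher. The members' median log2 change was -0.29 against -0.02 over all genes tested. When DEHP was added to ethanol, 31 members were lower and 0 higher, beside 12.7% and 15.1% of all genes, with a median of -0.42, between groups that also differed in Dbp, at a mean of 2.44 and 48.2 FPKM. The combination against vehicle gave 29 lower and 0 higher, beside 17.4% and 19.3%, with a median of -0.35. Of the 9 tested hepatocyte markers, 66.7% were lower in each comparison, with medians of -0.39, -0.52 and -0.39 in the order given. Higher were 0, 0 and 1 of them. Whether the members differed from hepatocyte genes at large was not tested. In these 3 comparisons 0 members were higher at an unadjusted p below 0.05, and DESeq2 called 0 higher. The comparisons with vehicle share the vehicle libraries and those with the combination share its libraries, but DEHP against vehicle and the combination against ethanol share none. In those 2 comparisons 23 members were lower in both, 88.5% of the 26 and 74.2% of the 31, while over all genes 425 were, 34.2% of 1241 and 31.3% of 1356. Without vehicle replicates 1 and 2, a choice made after their Saa1 values were seen, 21 members were lower with DEHP, 25 with the combination against vehicle and 33 with the combination against ethanol. Without the 3 libraries with muscle or pancreas transcripts these counts were 23, 26 and 31.

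**Figure D1:**
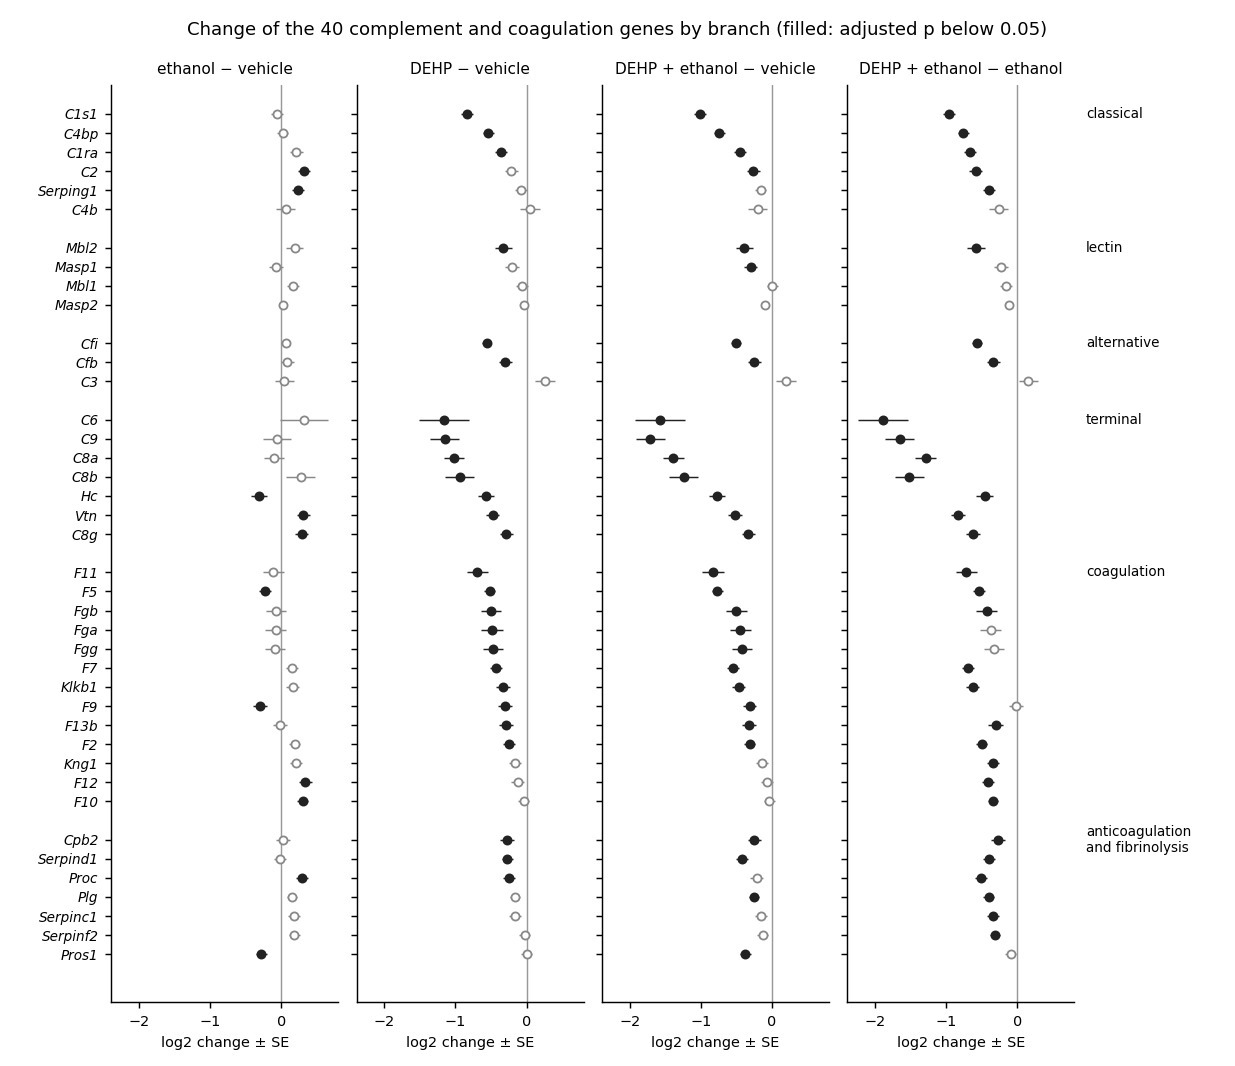
Log2 change ± SE of each of the 40 members (rows, by branch, ordered by the DEHP change) in 4 comparisons, with filled points for an adjusted p below 0.05 in edgeR's test. The terminal pathway genes reach furthest to the left in the 3 panels with DEHP, C9 at -1.15, -1.71 and -1.65, and the ethanol panel has points on both sides of 0.

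All 7 terminal pathway genes were lower in each comparison that added DEHP, with median log2 changes of -0.94 for DEHP against vehicle, -1.24 for the combination against vehicle and -1.29 for the combination against ethanol. C9, the subunit that polymerises into the pore, had a lowest, median and highest level of 209, 269 and 311 FPKM with vehicle. With ethanol these were 211, 237 and 264 FPKM, with DEHP 68.4, 95.1 and 197 FPKM, and with the combination 49.0, 76.9 and 122 FPKM. Every library with DEHP lay below every library without it. C9 fell by 1.15 ± 0.20 on the log2 scale with DEHP (adjusted p = 0.00014), or by 55%, and by 1.71 ± 0.21 with the combination (adjusted p = 5.95e-07). When DEHP was added to ethanol it fell by 1.65 ± 0.20 when DEHP was added to ethanol (adjusted p = 9.85e-07).

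C6, which joins C5b at the start of the complex, ran at 62.0, 80.2 and 115 FPKM with vehicle, 80.4, 99.6 and 115 with ethanol, 20.8, 33.5 and 64.0 with DEHP and 8.65, 20.6 and 72.7 with the combination (lowest, median, highest). Its standard errors were the largest of the 40 members. The highest DEHP library, replicate 5, and the highest combination library, replicate 4, lay within the vehicle range, and the other DEHP and combination libraries lay below it. C6 fell by 1.16 ± 0.35 with DEHP (adjusted p = 0.0149), by 1.57 ± 0.35 with the combination (adjusted p = 0.00106) and by 1.89 ± 0.35 when DEHP was added to ethanol (adjusted p = 0.000207). The first of these was no longer called without the 3 libraries with muscle or pancreas transcripts, at -0.95 and an adjusted p of 0.0759.

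The C8 protein has 3 chains, encoded by C8a, C8b and C8g. C8a was at 196, 223 and 267 FPKM with vehicle and 89.7, 99.2 and 162 with DEHP, and C8b at 124, 149 and 187 with vehicle and 53.4, 78.5 and 116 with DEHP, with no overlap for either gene. C8a fell by 1.02 ± 0.14 (adjusted p = 1.09e-05) and C8b by 0.94 ± 0.20 (adjusted p = 0.0014). With the combination against vehicle, C8a fell by 1.39 ± 0.15 (adjusted p = 8.05e-08) and C8b by 1.24 ± 0.21 (adjusted p = 4.5e-05). When DEHP was added to ethanol, C8a fell by 1.29 ± 0.15 (adjusted p = 2.56e-07), C8b by 1.52 ± 0.21 (adjusted p = 3.84e-06) and C8g by 0.62 ± 0.09 (adjusted p = 1.44e-05). C8g, whose product is a lipocalin bound to the alpha chain, was at 316, 371 and 401 FPKM with vehicle and 257, 312 and 339 with DEHP, and fell by 0.28 ± 0.09 (adjusted p = 0.027), with the ranges overlapping and an adjusted p of up to 0.07 when vehicle replicate 4 or 6 or DEHP replicate 1 or 3 was left out. The ratio of C8g to C8b in FPKM had a median of 2.59 with vehicle, 2.45 with ethanol, 3.90 with DEHP and 4.79 with the combination, and this difference between the genes was not tested. C8b and C8a are neighbours on chromosome 4 (chr4:104766317-104804548 and chr4:104815679-104876487), 11130 bases apart, while C8g lies at chr2:25498650-25501777.

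Hc, the gene for C5, was at 136, 184 and 227 FPKM with vehicle, 126, 137 and 158 with ethanol, 105, 121 and 145 with DEHP and 87.3, 111 and 122 with the combination. The vehicle and DEHP ranges overlapped, and the vehicle and combination ranges did not. Hc fell by 0.57 ± 0.11 with DEHP (adjusted p = 0.000592) and by 0.77 ± 0.11 with the combination (adjusted p = 9.46e-06). Vtn encodes vitronectin, an adhesive plasma protein that also keeps the terminal complex out of membranes. It stood at 1730, 1819 and 2054 FPKM with vehicle, at 1956, 2083 and 2595 with ethanol, at 1093, 1361 and 1523 with DEHP and at 1205, 1282 and 1411 with the combination. No library with DEHP reached the level of one without it, and Vtn fell by 0.48 ± 0.10 with DEHP (adjusted p = 0.000691), by 0.52 ± 0.10 with the combination (adjusted p = 0.000192) and by 0.83 ± 0.10 when DEHP was added to ethanol (adjusted p = 4.8e-07).

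**Figure D2:**
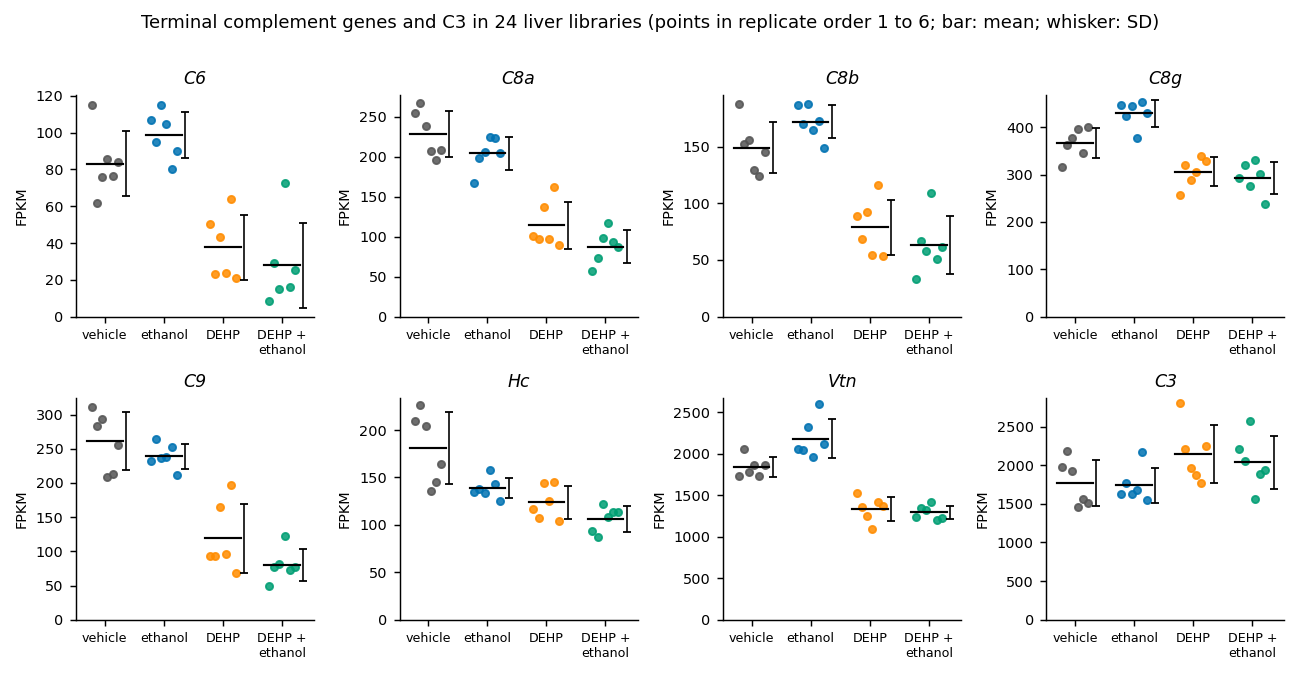
FPKM of the 7 terminal pathway genes and C3 in each of the 24 libraries (points, in replicate order 1 to 6 within a group), with the group mean (bar) and SD (whisker) over 6 libraries. C9, C8a, C8b and Vtn in the 12 libraries with DEHP sit below all 12 libraries without it, whereas C3 overlaps between all groups.

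Of the 6 classical pathway genes, 3 were lower with DEHP, 4 with the combination against vehicle and 5 with the combination against ethanol. C1s1 and C1ra encode the serine proteases C1s and C1r that, with C1q, form the first component. C1s1 was at 143, 174 and 182 FPKM with vehicle, 146, 154 and 173 with ethanol, 77.3, 96.5 and 111 with DEHP and 67.5, 85.3 and 91.7 with the combination. The groups with and without DEHP did not overlap. C1s1 fell by 0.84 ± 0.09 with DEHP (adjusted p = 7.01e-08), by 1.02 ± 0.09 with the combination (adjusted p = 2.11e-09) and by 0.96 ± 0.09 when DEHP was added to ethanol (adjusted p = 6.08e-09). C1ra, 6903 bases away on chromosome 6 (chr6:124512621-124523440 beside chr6:124530344-124542392), fell by 0.36 ± 0.09 with DEHP (adjusted p = 0.00302) and by 0.66 ± 0.09 when DEHP was added to ethanol (adjusted p = 2.01e-06). A small share of C1ra's reads may belong to a near-identical gene, since its expected count was not whole in 4.17% of the libraries.

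C4bp, the binding protein that inactivates C4b, was at 264, 283 and 290 FPKM with vehicle and 177, 191 and 225 with DEHP, with no overlap. It fell by 0.54 ± 0.07 (adjusted p = 6.96e-06) and, with the combination against vehicle, by 0.74 ± 0.07 (adjusted p = 3.86e-08), and when DEHP was added to ethanol by 0.76 ± 0.07 (adjusted p = 2.89e-08). C2, the protease of the classical C3 convertase, differed from vehicle by -0.22 ± 0.09 with DEHP (adjusted p = 0.0815), and fell by 0.58 ± 0.09 when DEHP was added to ethanol (adjusted p = 2.44e-05). Serping1, the C1 inhibitor, showed -0.08 ± 0.08 with DEHP against vehicle (adjusted p = 0.491) and fell by 0.39 ± 0.08 when DEHP was added to ethanol (adjusted p = 0.000576). C4b was called in no comparison, with log2 changes of 0.05 ± 0.14 for DEHP and -0.20 ± 0.14 for the combination against vehicle, and its fractional counts in every library mark reads that may be shared with C4a.

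The lectin pathway had the smallest median changes of the 6 branches in the 3 comparisons that added DEHP, at -0.13, -0.20 and -0.20. Of its 4 genes, 1 was lower with DEHP, 2 with the combination against vehicle and 1 with the combination against ethanol. Mbl2, a mannose-binding lectin, was at 216, 247 and 277 FPKM with vehicle and 127, 199 and 245 with DEHP, and fell by 0.33 ± 0.12 (adjusted p = 0.0464), the ranges overlapping. That call was lost in 23 of 38 alternatives, with an adjusted p of up to 0.119, while against ethanol the combination lowered Mbl2 by 0.58 ± 0.12 (adjusted p = 0.000652). Its paralogue Mbl1 was called in no comparison, at -0.06 ± 0.08 with DEHP (adjusted p = 0.622), and neither was the protease Masp2, at -0.04 ± 0.06 (adjusted p = 0.648). Masp1 was lower with the combination than with vehicle, by 0.30 ± 0.10 (adjusted p = 0.0162).

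Among the 3 alternative pathway genes, C3 stood apart from the others in sign. C3, the protein on which all pathways converge, was at 1460, 1743 and 2188 FPKM with vehicle, 1548, 1658 and 2167 with ethanol, 1772, 2086 and 2803 with DEHP and 1560, 1999 and 2574 with the combination. All groups overlapped, and no comparison called it, the log2 change with DEHP being 0.26 ± 0.14 (adjusted p = 0.159). Cfi, the protease that cleaves C3b and C4b, was at 307, 334 and 362 FPKM with vehicle and 217, 228 and 251 with DEHP, with no overlap, and fell by 0.56 ± 0.07 (adjusted p = 5.73e-07), and by 0.50 ± 0.07 with the combination (adjusted p = 1.74e-06). Cfb, the protease of the alternative C3 convertase, fell by 0.30 ± 0.09 (adjusted p = 0.02), a call lost without vehicle replicate 2 or DEHP replicate 3. Cfb and C2 lie 87 bases apart on chromosome 17 (chr17:34856374-34862514 and chr17:34862602-34882100), so reads at their border may be hard to assign where strand was not used.

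In coagulation, 10 of 13 genes were lower with DEHP, 10 with the combination against vehicle and 10 with the combination against ethanol. The 3 fibrinogen chains, Fga, Fgb and Fgg, lie together on chromosome 3 within chr3:83007724-83049863 and their levels tracked each other between libraries. Fgb was at 2402, 2755 and 4363 FPKM with vehicle, 2387, 2720 and 3303 with ethanol, 1857, 1979 and 2787 with DEHP and 1528, 2238 and 2614 with the combination. The ranges overlapped for each chain, and the highest vehicle values of all 3 chains were in replicate 1 and the next in replicate 2. With DEHP, Fga fell by 0.49 ± 0.15 (adjusted p = 0.0178), Fgb by 0.50 ± 0.15 (adjusted p = 0.0129) and Fgg by 0.47 ± 0.14 (adjusted p = 0.0161). Without vehicle replicates 1 and 2, the libraries with high Saa1, these were -0.23, -0.28 and -0.26 with adjusted p-values of 0.201, 0.136 and 0.16, and none was called. With the combination against vehicle the changes were -0.45, -0.50 and -0.42 (adjusted p = 0.0205, 0.00851 and 0.0225), and without those libraries -0.21, -0.30 and -0.22 (adjusted p = 0.215, 0.0859 and 0.195). Against ethanol, the combination lowered Fgb by 0.43 ± 0.15 (adjusted p = 0.0272), while Fga at -0.37 ± 0.15 and Fgg at -0.33 ± 0.14 missed the threshold (adjusted p = 0.0638 and 0.084). Without vehicle replicate 1 alone, the DEHP change of Fga was -0.35 with an adjusted p of 0.0537. The ratio of Fga to Fgb in FPKM had a median of 0.692 with vehicle, 0.684 with ethanol, 0.681 with DEHP and 0.723 with the combination.

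F11 and F5 had the largest changes of the coagulation genes against vehicle, with DEHP and with the combination. F11, factor XI of the contact system, was at 25.0, 30.6 and 34.0 FPKM with vehicle and 14.2, 16.0 and 27.4 with DEHP, overlapping in DEHP replicates 3 and 5, and fell by 0.69 ± 0.15 (adjusted p = 0.00127). With the combination it fell by 0.83 ± 0.15 (adjusted p = 0.000124), and those groups did not overlap. F5, the cofactor of factor Xa, was at 65.6, 68.7 and 78.8 FPKM with vehicle, 51.4, 54.1 and 72.6 with ethanol, 44.4, 49.6 and 55.9 with DEHP and 34.7, 40.8 and 49.0 with the combination. It fell by 0.52 ± 0.08 with DEHP (adjusted p = 2.62e-05) and by 0.77 ± 0.08 with the combination (adjusted p = 6.92e-08), without overlap with vehicle. Its expected count was fractional in every library, so some of its reads may be shared with other genes.

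The other contact system genes changed less against vehicle. Klkb1, plasma prekallikrein, whose gene is 4632 bases from F11 on chromosome 8, fell by 0.33 ± 0.09 with DEHP (adjusted p = 0.0109). F12, factor XII, differed by -0.13 ± 0.09 (adjusted p = 0.293) and Kng1, high molecular weight kininogen, by -0.16 ± 0.08 (adjusted p = 0.155). When DEHP was added to ethanol, all 4 contact genes were lower, F11 by 0.72 ± 0.15, Klkb1 by 0.63 ± 0.10, F12 by 0.41 ± 0.09 and Kng1 by 0.35 ± 0.08, and none of the 4 overlapped between the groups. Kng1 had fractional counts in every library, and its near-identical neighbour Kng2 may share its reads. F13b, the carrier subunit of factor XIII, fell by 0.29 ± 0.10 with DEHP (adjusted p = 0.0404), a call lost in 13 alternatives with an adjusted p of up to 0.0975.

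Of the 6 vitamin K dependent genes, 4 were lower with DEHP. F7, factor VII, which starts clotting with tissue factor, was at 55.02, 68.0 and 79.9 FPKM with vehicle, 68.5, 71.2 and 74.9 with ethanol, 42.3, 50.6 and 57.3 with DEHP and 42.0, 46.0 and 51.6 with the combination. It fell by 0.44 ± 0.09 with DEHP (adjusted p = 0.000511), by 0.55 ± 0.09 with the combination (adjusted p = 2.29e-05) and by 0.70 ± 0.09 when DEHP was added to ethanol (adjusted p = 9.41e-07), the combination overlapping with neither vehicle nor ethanol. F10, factor X, begins 1498 bases from F7 on chromosome 8 (chr8:13025506-13035809 and chr8:13037308-13056676), and its change with DEHP was -0.04 ± 0.08 (adjusted p = 0.718), the difference between the neighbours not being tested. F2, prothrombin, fell by 0.25 ± 0.08 (adjusted p = 0.0292), F9, factor IX, by 0.30 ± 0.10 (adjusted p = 0.0221) and Proc, protein C, by 0.24 ± 0.09 (adjusted p = 0.0412), each with all 6 DEHP libraries under the vehicle mean. These 3 calls were near the threshold, with adjusted p-values up to 0.0646, 0.0612 and 0.105 when single libraries were left out or only the groups compared were fitted.

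F9 was at 54.4, 61.9 and 64.6 FPKM with vehicle and lower by edgeR's test in each treated group, at 45.0, 46.1 and 55.4 with ethanol, 36.2, 52.5 and 60.1 with DEHP and 41.2, 49.0 and 57.4 with the combination. The ranges overlapped, and the combination differed from ethanol by -0.01 ± 0.10 (adjusted p = 0.935). Pros1, protein S, the cofactor of protein C, was at 14.4, 15.8 and 17.9 FPKM with vehicle and 13.5, 16.8 and 17.6 with DEHP, but 9.84, 13.2 and 13.7 with ethanol and 11.6, 12.0 and 13.8 with the combination. Its ethanol libraries lay below all vehicle libraries, and its combination libraries did too. Pros1 showed 0.00 ± 0.08 with DEHP (adjusted p = 0.991), and fell by 0.28 ± 0.08 with ethanol (adjusted p = 0.0101) and by 0.37 ± 0.08 with the combination (adjusted p = 0.000645).

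**Figure D3:**
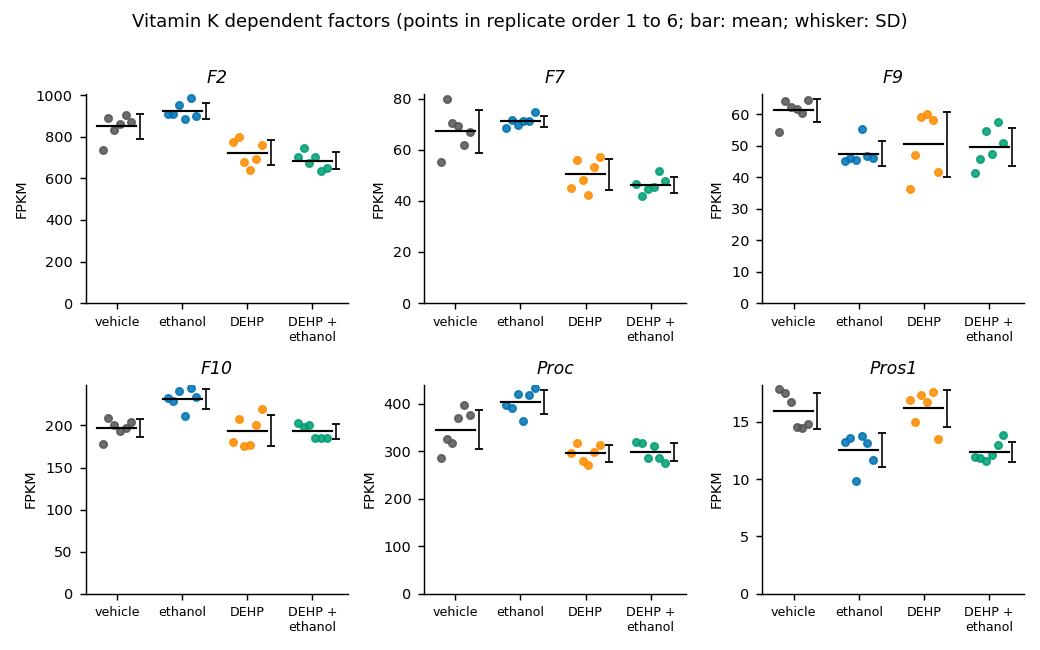
FPKM of the 6 vitamin K dependent genes in each of the 24 libraries (points, in replicate order 1 to 6), with the group mean (bar) and SD (whisker) over 6 libraries. F7 and F2 are lower in both groups with DEHP, F10 and Proc are highest with ethanol, and Pros1 is lower in both groups with ethanol.

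Of the 7 genes of anticoagulation and fibrinolysis, 3 were lower with DEHP, 4 with the combination against vehicle and 6 with the combination against ethanol. Besides Proc, these were Serpind1, heparin cofactor II, which fell by 0.27 ± 0.08 with DEHP (adjusted p = 0.0167), and Cpb2, the carboxypeptidase that protects fibrin from plasmin, which fell by 0.28 ± 0.10 (adjusted p = 0.0337), a call lost in 10 alternatives with an adjusted p of up to 0.223. Serpinc1, antithrombin, differed from vehicle by -0.16 ± 0.08 with DEHP (adjusted p = 0.17), Plg, plasminogen, by -0.17 ± 0.07 (adjusted p = 0.101) and Serpinf2, the plasmin inhibitor, by -0.03 ± 0.07 (adjusted p = 0.814). Against ethanol, the combination lowered these last by 0.34 ± 0.08, 0.40 ± 0.07 and 0.32 ± 0.07, with adjusted p-values of 0.00374, 0.000168 and 0.00219. Their levels in those groups did not overlap.

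Counted over all members, FPKM values of the 2 groups did not overlap for 9 members with DEHP against vehicle, all lower, where 2.72% of genes tested were lower without overlap. These were C1s1, C1ra, C4bp, Cfi, C8a, C8b, C9, Vtn and F5. The combination against vehicle separated 15 members in this way, beside 5.44% of genes, and the combination against ethanol 29, beside 4.36%. No member was higher without overlap in these comparisons, where 7.24%, 10.7% and 11.3% of genes were.

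Ethanol alone moved members in both directions. With 7 members higher and 4 lower than vehicle, beside 14.2% and 14.5% of all genes tested, the shares of 17.5% and 10% were near those of all genes. The members' median log2 change was 0.08. Between these groups Dbp differed as well, by 6.06 ± 0.45 on the log2 scale (adjusted p = 1.05e-09). F12 was at 272, 305 and 339 FPKM with vehicle and 347, 362 and 408 with ethanol, and rose by 0.34 ± 0.09 (adjusted p = 0.00513). F10 was at 179, 199 and 209 with vehicle and 211, 233 and 245 with ethanol, and rose by 0.31 ± 0.08 (adjusted p = 0.00474). These were the only members that were higher without overlap, and Pros1 the only one lower, beside 3.9% and 6.76% of genes. C2 rose by 0.32 ± 0.09 (adjusted p = 0.0106), Vtn by 0.31 ± 0.10 (adjusted p = 0.018), C8g by 0.29 ± 0.09 (adjusted p = 0.0216), Proc by 0.29 ± 0.09 (adjusted p = 0.0143) and Serping1 by 0.24 ± 0.08 (adjusted p = 0.0304), each higher than the vehicle mean in all 6 libraries. The lower members besides Pros1 were Hc by 0.31 ± 0.11 (adjusted p = 0.0397), F9 by 0.30 ± 0.10 (adjusted p = 0.0222) and F5 by 0.23 ± 0.08 (adjusted p = 0.0336), in 6, 6 and 5 of 6 libraries. Without vehicle replicates 1 and 2, C8g, Proc, Hc and Pros1 were no longer called, with adjusted p-values of 0.117, 0.112, 0.275 and 0.0694. Without the 3 libraries with muscle or pancreas transcripts, 6 members were higher and 3 lower. Serping1 and Hc were each lost in 13 of 38 alternatives and F5 in 8.

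The ethanol calls over all genes depended on how the libraries were scaled, and those of the members on the TPM scale. Over all genes edgeR called 1524 higher and 1555 lower, without TMM factors 930 and 2061, with limma on log2(FPKM + 1) 1090 and 1780 and with limma on log2(TPM + 1) 481 and 2764, and the last scaling moved the median of all genes by -0.14, to -0.15. On that scale 0 members were higher and 5 lower, while without TMM factors and with limma on log2(FPKM + 1) 6 were higher and 4 lower. The 7 higher members had transcripts of 1044 to 2644 bases (median 1837) and the 4 lower ones of 2734 to 8875 bases (median 4381). With a trend of counts against transcript length removed, 3 members were higher and 2 lower, and F5 stood at 0.02 (adjusted p = 0.879). Over all genes that setting called 1375 higher and 1192 lower. What part transcript length had in the ethanol calls was not tested. For the combination against ethanol the split over all genes moved as well, from 1620 higher and 1356 lower to 2563 and 695 on the TPM scale, and there 27 members were lower and 0 higher.

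**Figure D4:**
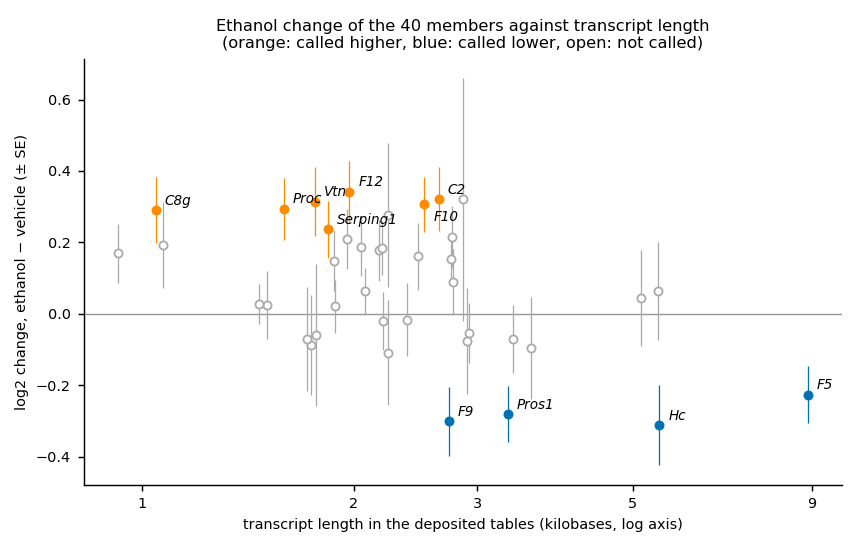
Log2 change ± SE of each of the 40 members with ethanol against vehicle (vertical axis) by transcript length in kilobases (horizontal log axis), with orange points higher and blue points lower by edgeR's test. The 7 orange points lie at 1044 to 2644 bases and the 4 blue points at 2734 to 8875 bases, with uncalled members (open) at all lengths.

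Between the combination and DEHP alone, edgeR called 0 of 40 members, where it called 0.122% of all genes. An unadjusted p below 0.05 was reached by 6 members, and by 1159 of the 10697 genes tested. DESeq2 called 1, Pros1, and limma on log2(FPKM + 1) called 0. Pros1 had the smallest adjusted p in edgeR, at -0.37 ± 0.08 (adjusted p = 0.0517), with all 6 combination libraries under the DEHP mean. The larger estimates had wide errors, C9 at -0.56 ± 0.20 (adjusted p = 0.323), C6 at -0.41 ± 0.35 (adjusted p = 0.686) and C8a at -0.37 ± 0.14 (adjusted p = 0.361).

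The interaction sets the effect of ethanol in the presence of DEHP against its effect without DEHP, and it called 0 members in edgeR, where 6.41% of all genes were called. An unadjusted p below 0.05 was reached by 15 members, and by 2504 of the 10697 genes tested. Of the 40 members, 34 had a negative sign, and their median was -0.20 beside 0.01 over all genes. The ethanol libraries, set apart by Dbp, enter the interaction, and what part that state had in it was not tested. DESeq2 called 1, Serpinf2, at -0.29 (adjusted p = 0.041), and limma on log2(FPKM + 1) called 0. C2 had the smallest adjusted p in edgeR, at -0.37 ± 0.13 (adjusted p = 0.081). Without combination replicate 4, which held the highest C6 level of its group, C6 was at -1.32 and C8b at -0.82, with adjusted p-values of 0.0319 and 0.0401. Without DEHP replicate 4, C2, Serpinf2 and Vtn were called, at -0.41, -0.34 and -0.41. These calls of the interaction changed with single libraries.

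Among other genes of the same pathways, 21 further complement genes were tested. With DEHP, 4 (19.0%) were lower than with vehicle and 0 higher, and with the combination 7 (33.3%) and 0. With ethanol, 4 (19.0%) were lower and 1 (4.76%) higher. Over all genes tested, 11.6% were lower and 14.4% higher with DEHP, and 17.4% and 19.3% with the combination. With ethanol these shares were 14.5% and 14.2%. C7, the one part of the terminal complex outside the 40 members, stayed at or under 1.93 FPKM in all libraries.

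Of 29 further genes of coagulation and fibrinolysis, 7 (24.1%) were lower and 4 (13.8%) higher with DEHP, beside 11.6% and 14.4% of all genes. With the combination 10 (34.5%) were lower and 4 (13.8%) higher, beside 17.4% and 19.3%. With ethanol 3 (10.3%) were lower and 6 (20.7%) higher, beside 14.5% and 14.2%. Those lower with DEHP included the protease inhibitors Mug2, at -0.59 ± 0.09 (adjusted p = 1.83e-05), and Mug1, at -0.71 ± 0.13 (adjusted p = 0.000274), and the plasma glycoprotein Ahsg, at -0.57 ± 0.09 (adjusted p = 2.25e-05). With the combination Cpn1, a subunit of carboxypeptidase N, rose by 0.57 ± 0.09 (adjusted p = 1.58e-05). Of 20 genes of the vitamin K cycle and of secretion, 2 (10%) were higher and 1 (5%) lower with DEHP, under the 14.4% and 11.6% of all genes. With the combination 5 (25%) were higher and 1 (5%) lower than with vehicle, beside 19.3% and 17.4%. Against ethanol the combination gave 6 (30%) higher and 3 (15%) lower, beside 15.1% and 12.7%. With ethanol 2 (10%) were higher and 3 (15%) lower than with vehicle, beside 14.2% and 14.5%. The quinone reductase Nqo1 rose by 0.92 ± 0.23 with DEHP (adjusted p = 0.00487). Vkorc1, the vitamin K epoxide reductase, rose with ethanol, by 0.34 ± 0.08 (adjusted p = 0.00206).

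Of 36 transcription factors, receptors and signalling genes linked to liver plasma protein genes, Dbp among them, 7 (19.4%) were lower and 0 higher with DEHP. With the combination 12 (33.3%) were lower and 2 (5.56%) higher, and with ethanol 11 (30.6%) and 9 (25%). The lower shares over all genes were 11.6%, 17.4% and 14.5%, and the higher ones 14.4%, 19.3% and 14.2%. The interleukin 1 receptor Il1r1 fell by 0.95 ± 0.16 with DEHP (adjusted p = 6.36e-05), Cebpb by 1.09 ± 0.20 (adjusted p = 0.000306) and Cebpd by 1.02 ± 0.23 (adjusted p = 0.00225). The interleukin 6 receptor Il6ra had a mean of 18.0 FPKM with vehicle, 8.92 with ethanol, 10.6 with DEHP and 6.42 with the combination, and fell in each treated group, by 0.94 ± 0.20 with ethanol (adjusted p = 0.00141), by 0.78 ± 0.20 with DEHP (adjusted p = 0.00507) and by 1.48 ± 0.20 with the combination (adjusted p = 4.12e-06). The hepatocyte nuclear receptor Hnf4a fell by 0.37 ± 0.09 with DEHP (adjusted p = 0.00381) and by 0.51 ± 0.09 with the combination (adjusted p = 0.00012), and stood at -0.21 ± 0.09 with ethanol (adjusted p = 0.0869). With ethanol alone Il1r1 fell by 1.42 ± 0.16 (adjusted p = 7.73e-07), Cebpb fell by 0.94 ± 0.20 (adjusted p = 0.00173) and Cebpd fell by 1.38 ± 0.24 (adjusted p = 0.000205), while Cebpa rose by 1.02 ± 0.10 (adjusted p = 1.28e-07). Of 30 acute phase genes, 10 (33.3%) were lower and 1 (3.33%) higher with DEHP, beside 11.6% and 14.4% of all genes. With ethanol 9 (30%) were lower and 2 (6.67%) higher, beside 14.5% and 14.2%. With the combination these were 17 (56.7%) and 1 (3.33%), beside 17.4% and 19.3%. The combination against ethanol gave 11 (36.7%) lower and 1 (3.33%) higher, beside 12.7% and 15.1%. This list includes Saa1, and the 2 vehicle libraries with high Saa1 enter each comparison with vehicle. Among those lower with DEHP were Itih2 at -0.49 ± 0.07 (adjusted p = 9.44e-06) and the iron hormone Hamp at -1.91 ± 0.32 (adjusted p = 8.96e-05). Whether the levels of these regulators had a part in the members' changes was not tested.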

How the data were processed

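Liver RNA of 24 libraries, 6 in each of 4 gavage groups, was sequenced from Illumina TruSeq libraries of total RNA, per the labels' protocols. For each library the authors deposited an expected count, an unnormalised estimate of the reads from each gene, per the file headers. The same deposited tables hold FPKM, counts scaled to transcript length and to the reads assigned in the library, per the file headers. The submitters' processing notes name Cuffdiff and the builds mm10 and GRCm38. Not given in the sources used here are the aligner, the counting program, and how strand and shared reads were handled.

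A gene absent from a table was set to 0. Genes with at least 1 FPKM in at least 6 libraries were tested (10697). Expected counts were rounded and fitted with TMM factors in edgeR 4.0.16 under R 4.3.3, with all 4 groups and no covariate (20 residual degrees of freedom), by the quasi-likelihood F test. The p-values were adjusted over all genes tested by the Benjamini-Hochberg method, with calls made below 0.05. Log2 changes are edgeR's estimates, and a standard error is the unshrunken change over the square root of F. Library totals were 7324793 to 8016662 counts, and no member had fewer than 182 in any library.

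DESeq2 1.42.0, limma 3.58.1 on log2(FPKM + 1), log2(FPKM + 0.1) and log2(TPM + 1), other filters and scalings, a replicate block and leaving out each library were tried. The code was tested on simulated data. Promoter words were searched in RefSeq sequences of GRCm38.p6, which also gives the coordinates. The members, lists and tests were chosen with earlier results of these data known. Named in each comparison are called members changed by at least 0.5 on the log2 scale (at most 12), the best member of each branch, the fibrinogen, vitamin K dependent and contact genes, uncalled members, and up to 3 genes of each related list, of which some are given. C7 was named after its value was seen. Some further complement genes are not reported here by name.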

Additional observations from a re-analysis of the deposited data

Results flagged for a closer look

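Of 160 combinations of a member and a group, 11 held 1 library far from the other 5 by Dixon's test at its 95% level, which chance alone gives in about 1 in 20, or 8. In ethanol replicate 4, F5 was high at 72.6 FPKM, F9 at 55.4 FPKM and Klkb1 at 82.1 FPKM. In ethanol replicate 5, C3 was high at 2167 FPKM and Cfb at 594 FPKM. DEHP replicate 1 was high in C4b at 533 FPKM and low in Serpind1 at 146 FPKM. With vehicle, Serpinc1 was low in replicate 1 at 874 FPKM, the library with muscle transcripts, and C4bp was low in replicate 5 at 264 FPKM. With the combination, C6 was high in replicate 4 at 72.7 FPKM, the next library being at 29.2 FPKM, and C2 was low in replicate 2 at 36.9 FPKM.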

How the results depend on the processing

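The counts of lower members with DEHP ranged from 19, with only the groups compared in the fit, to 31 for DEHP against vehicle, from 25 to 36 for the combination against vehicle and from 27 to 34 for the combination against ethanol. The terminal genes stayed at 6 or 7 of 7. Leaving out each library gave 21 to 27, 25 to 32 and 28 to 33. Of 97 called values of single members, 63 kept their direction and call under all 38 alternatives. With DEHP against vehicle, single libraries left out (replicates in brackets) ended the call of Mbl2 (15 different libraries), Cfb (vehicle 2, DEHP 3), C8g (vehicle 4, 6, DEHP 1, 3), F2 (vehicle 2, 4, 5, 6, DEHP 3, 4, 5), F9 (DEHP 1, 6), F13b (vehicle 3, 4, 5, 6, DEHP 1, 2, 6), Fga (vehicle 1), Proc (vehicle 2, 4, 5, 6, DEHP 1, 3, 4, 5, 6) and Cpb2 (vehicle 2, DEHP 2, 3, 6), and with the combination against vehicle of Fga and Fgg (vehicle 1, combination 2), Masp1 (vehicle 3), C2 (vehicle 2, combination 2), Cfb (vehicle 2, 3, combination 4) and Cpb2 (vehicle 2, 3, 6, combination 2, 4, 6). For the combination against ethanol these were Fgb (ethanol 5, 6, combination 1, 2), F13b (ethanol 1, 2, combination 1, 2, 6) and Cpb2 (ethanol 1, 5, 6, combination 2, 4, 6), and for ethanol against vehicle Serping1 (vehicle 1, 5, 6, ethanol 3, 5), Hc (vehicle 1, 2, 3, ethanol 1, 2, 3, 5, 6), C8g (vehicle 1, ethanol 3), Vtn (ethanol 5) and F5 (vehicle 3, 5, 6, ethanol 1, 3, 5, 6). F5 with ethanol reversed, to 0.0172 on the log2 scale, with the length trend removed.

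With ethanol, the higher members numbered 11 with DESeq2, 0 with limma on log2(TPM + 1), 3 with the length trend removed and 5 to 10 when each library was left out. The lower ones numbered 2 without the low-value filter, 2 without the 2 vehicle libraries with high Saa1, 2 with the length trend removed and 2 to 4 when each library was left out. Between the combination and DEHP, 1 member, Pros1, was called with DESeq2, with RLE factors, with a filter at 5 FPKM, without the 3 libraries with muscle or pancreas transcripts and without the 2 with high Saa1, and 0 to 1 when each library was left out. The interaction called 1 with DESeq2, 1 without the 2 libraries with high Saa1 and 0 to 3 when each library was left out. The causes were not tested. The last 3 alternatives (length trend, 3 libraries, 2 libraries) were added after the data were seen.

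With the replicate number as a block, 25, 28 and 32 members were lower in these DEHP comparisons, and 7 were higher and 3 lower with ethanol. The numbers did not pair the libraries: over 36 pairs of same-numbered libraries the correlation of their deviations ran from -0.224 to 0.208, and 1 of 24 libraries correlated best with its own number.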
